A study of Arabidopsis thaliana with 12 samples.

Results

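COR15A (AT2G42540), COR15B (AT2G42530), COR47 (AT1G20440) and LTI30 (AT3G50970) are 4 Arabidopsis thaliana genes for cold-regulated protective proteins. Each was read by 1 Affymetrix ATH1 probe set with that gene alone in the platform's probe-to-gene table, which gave 4 of the 13513 single-gene probe sets and 4 of the 22746 probe sets tested. The 4 genes were chosen by their higher signal after induction of CPR5-C, which is a rise over the CPR5-C water arrays. Comparisons that use the induced arrays or the CPR5-C water arrays are therefore given for them as descriptions, with no test. WT dex against WT water leaves use neither set of arrays, and there the 4 genes were tested, although the result was known when they were chosen. A fall in WT dex leaves also raises the interaction and the change in CPR5-C dex against WT dex leaves. The wild-type p-values are therefore not independent of the choice of the 4 genes.

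COR15A and COR15B are small, hydrophilic proteins of the chloroplast stroma that belong to the late embryogenesis abundant (LEA) proteins, which protect membranes and enzymes when cells lose water. They are largely disordered in solution, fold as water is removed and are known to stabilise the inner chloroplast envelope during freezing. COR47 and LTI30 (also called XERO2) are dehydrins, the LEA class defined by a lysine-rich segment: COR47 is an acidic dehydrin and LTI30 a basic one that binds membranes. In leaves, cold raises all of them through the CBF transcription factors, which bind the C-repeat/dehydration-responsive element, and drought and abscisic acid (ABA) raise dehydrins as well.

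RNA came from mature leaves of 4-week-old plants kept on soil at 22 °C with 12 h of light and 12 h of dark. None of the groups was exposed to cold according to the labels. CPR5-C dex denotes Dex:YFP-CPR5-C plants, a transgenic Col-0 line in which dexamethasone switches on a YFP fusion of the CPR5 C-terminus, sprayed with 50 µM dexamethasone. CPR5-C water denotes the same line sprayed with water, WT dex denotes wild-type Col-0 sprayed with dexamethasone, and WT water denotes wild-type Col-0 sprayed with water. All leaves were collected 24 h after spraying, with 3 biological replicates per group and 12 arrays in all. CPR5 is a transmembrane component of nuclear pores, and the study describes the truncated form as a dominant negative. The labels do not say how many transgenic lines were used, in which cells the promoter is active or whether plants were pooled. CPR5 itself was not analysed here, so induction of the transgene was not checked.

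Each value is a log2 signal relative to that probe set's own median across all 12 arrays. A value of 0 is therefore that median, and neither absolute levels nor detection can be read from it, nor can the levels of 2 genes be compared. A probe set was called when its Benjamini-Hochberg adjusted p in limma, over all 22746 probe sets, was under 0.05. Across probe sets, centred values had an SD of 0.68 to 0.69 on CPR5-C dex arrays and of 0.13 to 0.23 on the other 9. The number of arrays limits the precision. Because RNA came from whole leaves, fewer cells of a type and less RNA per cell cannot be told apart.

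All 4 genes had their highest signals on the 3 CPR5-C dex arrays. The plot of the 4 genes by array shows these arrays far above the other 9, which lie within 1 log2 unit of each gene's median. LTI30 was 40.7-fold higher in CPR5-C dex than in CPR5-C water leaves, COR15B 31.0-fold, COR15A 20.8-fold and COR47 13.0-fold.

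**Figure D1:**
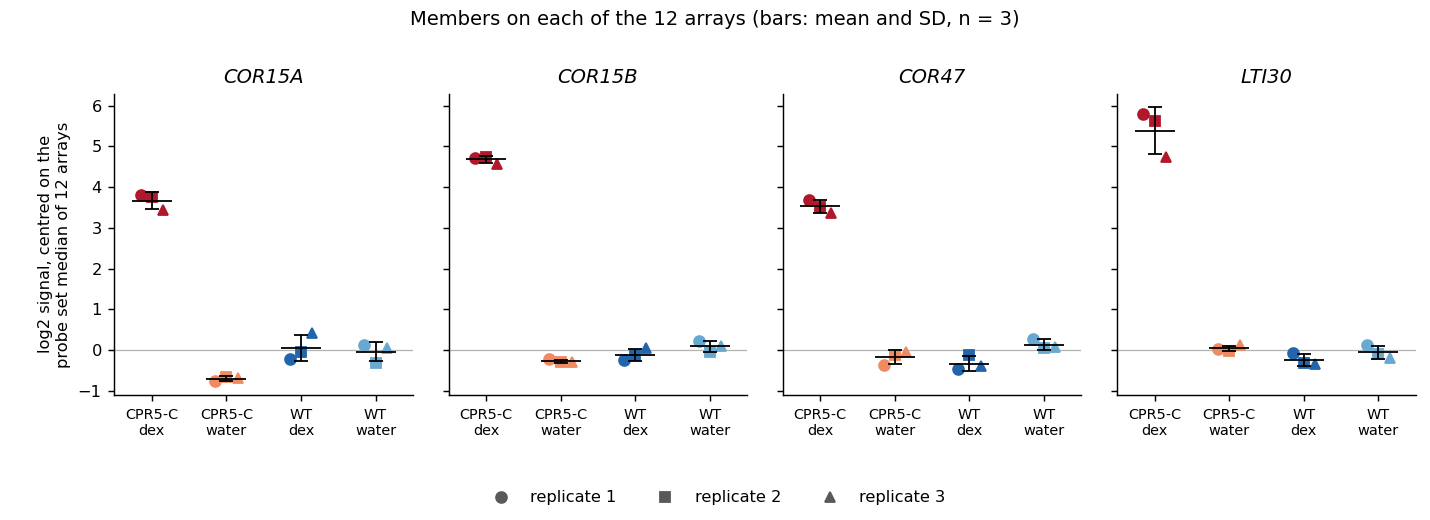
Centred log2 signal (y axis) of COR15A, COR15B, COR47 and LTI30 on each array, by group (x axis), with marker shape for the replicate and bars for mean and SD (n = 3). The CPR5-C dex arrays lie between 3.37 and 5.81, and the other 9 arrays between -0.77 and 0.41.

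Of the chloroplast proteins, COR15B had centred log2 signals of 4.72, 4.74 and 4.58 in CPR5-C dex leaves, -0.23, -0.31 and -0.29 in CPR5-C water leaves, -0.25, -0.13 and 0.04 in WT dex leaves, and 0.23, -0.04 and 0.09 in WT water leaves. Its 3 induced arrays were close to each other, with a mean of 4.68 ± 0.09 (SD, n = 3), and stood clear of every other array. The log2 change in CPR5-C dex against CPR5-C water leaves was 4.96 (SE 0.09). COR15A had 3.81, 3.76 and 3.44 in CPR5-C dex leaves, -0.77, -0.67 and -0.68 in CPR5-C water leaves, -0.22, -0.05 and 0.41 in WT dex leaves, and 0.13, -0.31 and 0.05 in WT water leaves. Its water-sprayed CPR5-C arrays were the lowest of the 12, and its 2 wild-type groups overlapped. The log2 change in CPR5-C dex against CPR5-C water leaves was 4.38 (SE 0.15).

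Of the dehydrins, LTI30 had centred log2 signals of 5.81, 5.62 and 4.73 in CPR5-C dex leaves, 0.02, -0.02 and 0.11 in CPR5-C water leaves, -0.08, -0.31 and -0.34 in WT dex leaves, and 0.12, -0.09 and -0.21 in WT water leaves. It had the widest spread of the 4 genes among induced arrays (mean 5.39 ± 0.58, SD, n = 3), with replicate 3 below the other two, while its CPR5-C water, WT dex and WT water arrays lay close to the median. The log2 change in CPR5-C dex against CPR5-C water leaves was 5.35 (SE 0.20), and it turned to -0.043 under cyclic loess normalization of the already centred values, which takes out large changes by construction. COR47 had 3.69, 3.52 and 3.37 in CPR5-C dex leaves, -0.36, -0.12 and -0.05 in CPR5-C water leaves, -0.47, -0.13 and -0.40 in WT dex leaves, and 0.28, 0.05 and 0.06 in WT water leaves. Its WT water arrays were the highest of those without induced CPR5-C, above every CPR5-C water and WT dex array. The log2 change in CPR5-C dex against CPR5-C water leaves was 3.71 (SE 0.11).

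Among all probe sets, ranked by log2 rise in CPR5-C dex against CPR5-C water leaves, LTI30 was 20th, COR15B 27th, COR15A 40th and COR47 69th of 22746. In that comparison 23.3% of all probe sets were called higher, 24.6% were called lower, and 26.4% had all 3 CPR5-C dex arrays above all 3 CPR5-C water arrays. The last was so for the 4 genes, as their choice fixed. The median log2 change over all probe sets was -0.02, and 5.32% were called higher by at least 1 log2 unit.

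Set against dexamethasone-sprayed wild type, the 4 genes were again high. The log2 change in CPR5-C dex against WT dex leaves was 5.63 for LTI30 (49.5-fold), 4.80 for COR15B (27.8-fold), 3.86 for COR47 (14.5-fold) and 3.62 for COR15A (12.3-fold). Over all probe sets 23.3% were called higher in this comparison, 24.1% lower, and 27.1% had all 3 CPR5-C dex arrays above all 3 WT dex arrays. The interaction, which is the dexamethasone change in CPR5-C leaves minus that in WT leaves, was 5.53 (SE 0.28) on the log2 scale for LTI30, 5.16 (SE 0.12) for COR15B, 4.29 (SE 0.21) for COR15A and 4.17 (SE 0.16) for COR47. Over all probe sets 18.1% had a called positive interaction and 20.4% a called negative one. These comparisons share the CPR5-C dex arrays, so their values are not independent of each other.

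Dexamethasone alone did not raise any of the 4 genes in wild-type leaves past the threshold. COR47 fell, with a log2 change of -0.46 (SE 0.11, adjusted p = 0.0178) in WT dex against WT water leaves, which is 1.38-fold lower. All 3 WT dex arrays of COR47 were below all 3 WT water arrays. The share of all probe sets separated in this way is not given for this comparison, so the separation is not read as particular to COR47. COR15B had a log2 change of -0.21 (SE 0.09, adjusted p = 0.185), LTI30 one of -0.18 (SE 0.20, adjusted p = 0.673) and COR15A one of 0.09 (SE 0.15, adjusted p = 0.801). The wild-type response was thus 0 called higher and 1 called lower of 4, where 5.07% of all probe sets were called higher and 4.01% lower. The COR47 call was lost when WT dex replicate 1, WT dex replicate 3 or WT water replicate 1 was left out, with log2 changes of -0.56 to -0.39 and adjusted p of 0.00866 to 0.0851 over the 12 single-array omissions.

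The 2 chloroplast genes had lower signals in the transgenic line than in wild type without dexamethasone. Because a low CPR5-C water signal raises the change on which the genes were chosen, these values are described and not tested. COR15A had a log2 change of -0.66 (SE 0.15) in CPR5-C water against WT water leaves, which is 1.59-fold lower, and its 3 CPR5-C water arrays lay below all 3 WT water arrays. COR15B had one of -0.37 (SE 0.09), which is 1.29-fold lower, again without overlap between the arrays. COR47 had one of -0.31 (SE 0.11), also without overlap, and LTI30 one of 0.10 (SE 0.20), with overlap. The share of all probe sets without overlap is not given for this comparison, so its absence is not read as particular to these genes. With single arrays left out, COR15A kept log2 changes of -0.80 to -0.58 and COR15B of -0.43 to -0.30.

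**Figure D2:**
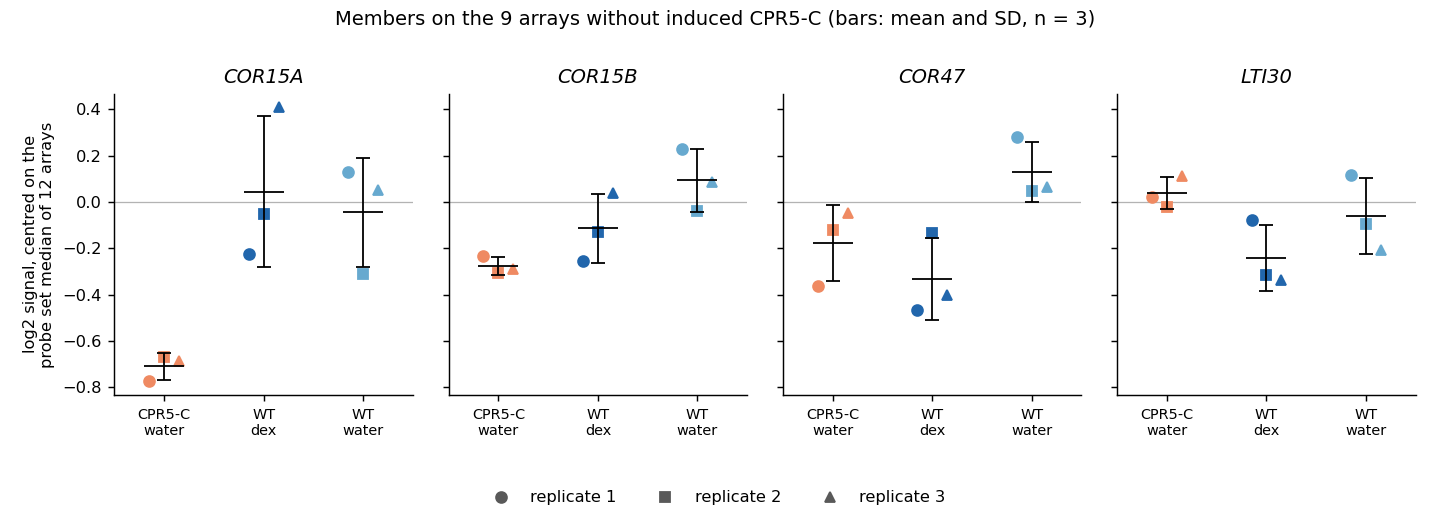
Centred log2 signal (y axis) of COR15A, COR15B, COR47 and LTI30 on the 9 arrays without induced CPR5-C, by group (x axis), with bars for mean and SD (n = 3). COR15A lies between -0.77 and -0.67 in CPR5-C water leaves, below its 6 wild-type arrays at -0.31 to 0.41, and COR47 in WT dex leaves lies below all of its WT water arrays.

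Against dexamethasone-sprayed wild type, COR15A had the lower signal in CPR5-C water leaves too. Its log2 change in CPR5-C water against WT dex leaves was -0.75 (SE 0.15), which is 1.69-fold lower, and it was -0.89 to -0.57 with single arrays left out. COR15B had a log2 change of -0.16, COR47 one of 0.16 and LTI30 one of 0.28 (SE 0.20). The 3 CPR5-C water arrays of LTI30 lay above the 3 WT dex arrays, while those of COR15A lay below them. Here too the share of all probe sets without overlap is not given, so neither separation is read as particular to these genes. The comparisons of CPR5-C water leaves with the 2 wild-type groups share the CPR5-C water arrays.

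Within the 9 arrays without induced CPR5-C, the 4 genes did not vary as a block. As a description over these 9 arrays, which share 3 groups, Pearson's r was 0.80 between COR15A and COR15B and 0.56 between COR47 and COR15B. It was 0.35 between LTI30 and COR47, 0.12 between COR47 and COR15A, -0.20 between LTI30 and COR15B and -0.61 between LTI30 and COR15A. COR15A and COR15B are adjacent paralogs, and whether their probe sets bind each other's transcript was not tested.

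The rest of the LEA family moved with the 4 genes in part. Of 48 other LEA genes listed, 32 were measured by a single-gene probe set, and in CPR5-C dex against CPR5-C water leaves 14 were called higher (43.8%), 1 lower and 17 not called. Their median log2 change was 0.19, their range -0.31 to 4.25, and 6 of the 32 were called higher by at least 1 log2 unit (18.8%). Over all probe sets these shares were 23.3% called higher and 5.32% called higher by at least 1 log2 unit. In the plot of the family, all 4 cold-regulated genes lie at or above 3.71, a range that 2 other LEA genes also reach.

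**Figure D3:**
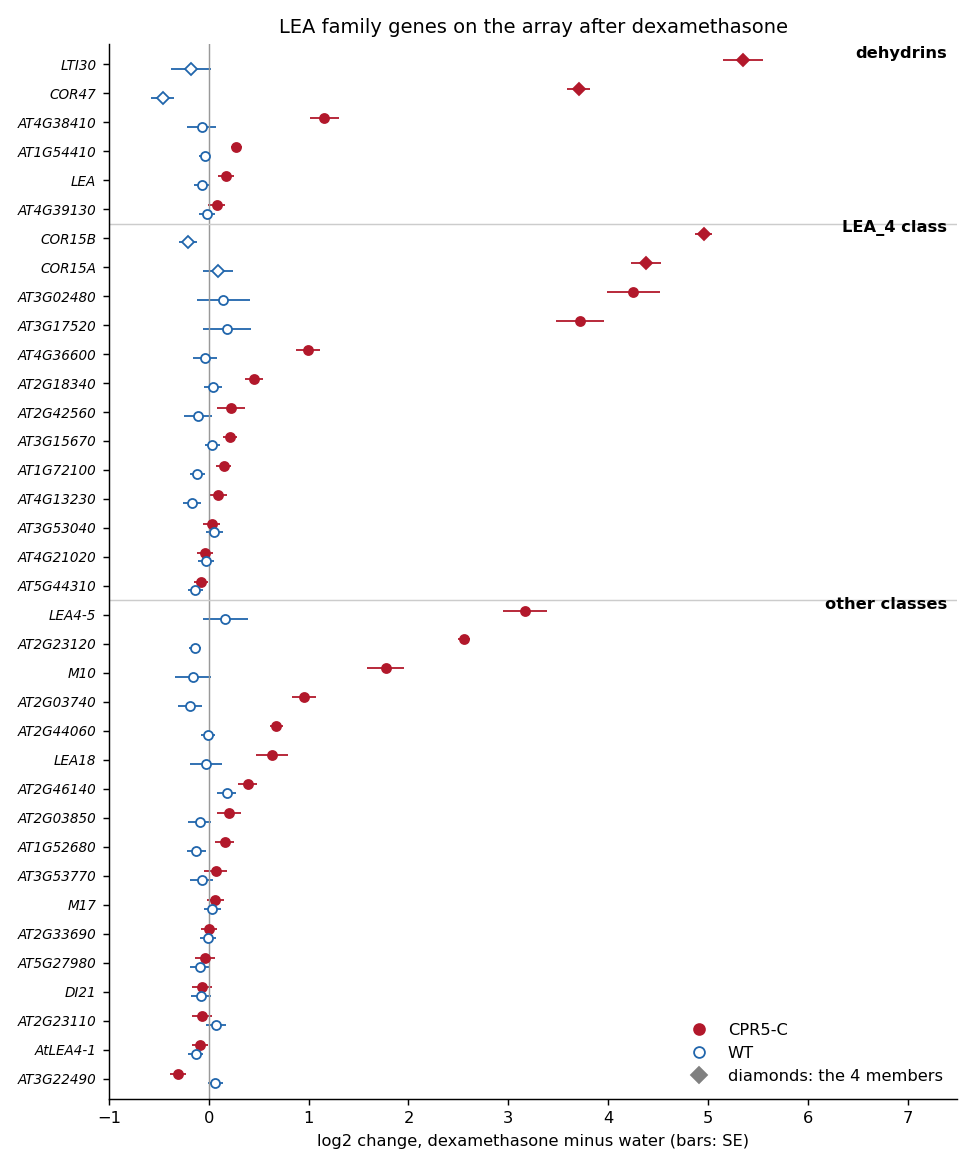
Log2 change of dexamethasone against water (x axis, bars are SE) in CPR5-C leaves (filled) and WT leaves (open) for COR15A, COR15B, COR47 and LTI30 (diamonds) and 32 other LEA genes (circles), by class. In CPR5-C leaves 14 of the 32 other genes were called higher, while in WT leaves those 32 lie between -0.19 and 0.18 with 0 called.

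Among the dehydrins, the class of COR47 and LTI30, 2 of 4 other measured genes were called higher in CPR5-C dex against CPR5-C water leaves. The share called higher over all probe sets was 23.3%, and a count over 4 genes is not read as a result about the class. AT4G38410 had a log2 change of 1.16 (SE 0.15, adjusted p = 1.01e-05), and AT1G54410, which encodes the small dehydrin HIRD11, one of 0.27 (adjusted p = 0.000865). LEA (AT2G21490) at 0.17 (adjusted p = 0.103) and AT4G39130 at 0.08 (adjusted p = 0.497) did not pass. No other dehydrin measured came near the log2 changes of COR47 and LTI30, which were chosen by their rise in this comparison. ERD10 and XERO1, the dehydrin genes next to COR47 and LTI30 on the chromosome, were not analysed here.

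Of the LEA_4 class, to which COR15A and COR15B belong, 11 other genes were measured. In CPR5-C dex against CPR5-C water leaves 5 were called higher (45.5%) and 0 lower, where 23.3% and 24.6% of all probe sets were. AT3G02480 had centred log2 signals of 5.05, 4.38 and 3.39 in CPR5-C dex leaves and of 0.06, 0.01 and -0.001 in CPR5-C water leaves, a log2 change of 4.25 (SE 0.26, adjusted p = 4.79e-09). AT3G17520 had 4.46, 3.61 and 2.99 in CPR5-C dex leaves and 0.11, -0.17 and -0.04 in CPR5-C water leaves, a log2 change of 3.72 (SE 0.24, adjusted p = 7.22e-09). For both genes replicate 3 was the lowest of the CPR5-C dex arrays, as it was for LTI30, COR15A, COR15B and COR47. AT4G36600 at 0.99, AT2G18340 at 0.45 and AT3G15670 at 0.22 were called higher with smaller changes, and the remaining 6 genes of the class were not called.

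In the other LEA classes 7 of 17 genes were called higher (41.2%) and 1 lower (5.88%) in CPR5-C dex against CPR5-C water leaves. The shares over all probe sets were 23.3% and 24.6%. AT2G23120 had 2.48, 2.54 and 2.53 in CPR5-C dex leaves and -0.04, -0.06 and -0.03 in CPR5-C water leaves, a log2 change of 2.56 (SE 0.06, adjusted p = 4.03e-13). LEA4-5, a LEA protein known to accumulate under water deficit, had 3.67, 3.38 and 2.48 in CPR5-C dex leaves and -0.25, 0.05 and 0.22 in CPR5-C water leaves, a log2 change of 3.17 (SE 0.22, adjusted p = 1.67e-08). For both genes all 3 CPR5-C dex arrays lay above all 3 CPR5-C water arrays, as was so for 26.4% of all probe sets. LEA4-5 was lowest in replicate 3 of the CPR5-C dex arrays as well. Under cyclic loess normalization the changes of AT2G23120, AT3G02480 and AT3G17520 turned negative, to between -0.17 and -0.06. AT3G22490 fell by 0.31 on the log2 scale (adjusted p = 0.00469).

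Outside the induced leaves few of the other LEA genes were called, as was so of all probe sets. In WT dex against WT water leaves 0 of the 32 were called by limma, where 5.07% of all probe sets were called higher and 4.01% lower, 1 of the 32 had an unadjusted p under 0.05, and log2 changes ran between -0.19 and 0.18. In CPR5-C water against WT water leaves 1 was called, AT2G46140 (LEA27), with a log2 change of 0.36 (adjusted p = 0.0316), and 2 had an unadjusted p under 0.05. Of all probe sets 4.25% were called higher there and 2.83% lower. In CPR5-C water against WT dex leaves 0 of the 32 were called and 1 had an unadjusted p under 0.05, where 1.11% of all probe sets were called higher and 0.400% lower. These counts, from leaves without induced CPR5-C, are near the shares over all probe sets. The tests behind them took the spread from all 12 arrays, so a wide spread among induced arrays raises the SE. For AT3G02480 in WT dex against WT water leaves the SE was 0.26. Its SD was 0.005 in WT dex, 0.04 in WT water and 0.83 in CPR5-C dex leaves. The absence of a call is therefore not read as the absence of a response. The interaction was called positive for 12 of the 32 (37.5%) and negative for 1 (3.12%), with a median of 0.27 on the log2 scale. Over all probe sets 18.1% had a called positive interaction and 20.4% a called negative one. In CPR5-C dex against WT dex leaves 13 were called higher (40.6%) and 1 lower (3.12%), with a median of 0.18. Over all probe sets 23.3% were called higher there and 24.1% lower.

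Few regulators of these genes could be examined. Of 40 listed genes of cold signalling and CBF regulation, 4 were measured, by 5 probe sets. GI (GIGANTEA), a clock protein also tied to freezing tolerance, had centred log2 signals of 2.15, 2.23 and 2.56 in CPR5-C dex leaves, -0.14, -0.15 and 0.01 in CPR5-C water leaves, -0.01, 0.03 and 0.02 in WT dex leaves, and -0.48, -0.78 and -0.65 in WT water leaves. It was called higher in CPR5-C dex against CPR5-C water leaves (2.403, SE 0.10), in WT dex against WT water leaves (0.65, adjusted p = 0.000756) and in CPR5-C water against WT water leaves (0.55, adjusted p = 0.00431). Its WT water arrays were thus the lowest of the 12, a pattern unlike that of COR15A, which was lowest in CPR5-C water leaves.

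STZ, a zinc finger repressor of the cold and drought response, was called lower in CPR5-C dex against CPR5-C water leaves (log2 change -0.56, adjusted p = 0.0339) and in WT dex against WT water leaves (-1.24, adjusted p = 0.00104). It was called higher in CPR5-C dex against WT dex leaves (0.58, adjusted p = 0.0285) and in CPR5-C water against WT dex leaves (1.14, adjusted p = 0.00909), so its WT dex arrays were the lowest, and its interaction of 0.68 was not called (adjusted p = 0.0775). SIZ1, a SUMO ligase that acts on the CBF activator ICE1, had 2 probe sets, at 0.34 (adjusted p = 0.000858) and 0.19 (adjusted p = 0.0589) in CPR5-C dex against CPR5-C water leaves. EIN3, an ethylene-response factor that represses CBF genes, had a log2 change of 0.12 there (adjusted p = 0.186). Of these 5 probe sets 2 were thus called higher and 1 lower, where 23.3% of all probe sets were called higher and 24.6% lower.

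Of 30 other cold-regulated genes listed, 2 were measured, and neither was called in any of the 6 comparisons. In CPR5-C dex against CPR5-C water leaves COR27, a cold-regulated gene under clock control, had a log2 change of -0.06 (adjusted p = 0.622), and AT4G33980 one of 0.07 (adjusted p = 0.549). Both therefore stood apart in size of change from COR15A, COR15B, COR47 and LTI30, although they too are cold-regulated by name or list.

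Of 17 listed genes of ABA synthesis and breakdown, 1 was measured, and 0 of 31 genes of ABA receptors and signalling. BGLU33, a glucosidase that releases ABA from its glucose ester, had a log2 change of 0.24 in CPR5-C dex against CPR5-C water leaves (adjusted p = 0.0578) and was called higher in CPR5-C water against WT water leaves (0.45, adjusted p = 0.0126). Of 30 dehydration-responsive genes outside the LEA family, 2 were measured. ALDH7B4, an aldehyde dehydrogenase induced by drought and salt, had 4.41, 4.36 and 4.25 in CPR5-C dex leaves and -0.24, -0.05 and 0.15 in CPR5-C water leaves, a log2 change of 4.38 (SE 0.10, adjusted p = 3.92e-13), the same size as that of COR15A to 2 decimals. In WT dex against WT water leaves ALDH7B4 was called higher by 0.41 (adjusted p = 0.0225). HIS1-3, a drought-inducible linker histone, had a log2 change of 0.34 in CPR5-C dex against CPR5-C water leaves (adjusted p = 0.208).

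Over the 6 pathway lists together, 41 of 196 genes were measured, by 42 probe sets. Of these, 32 were the LEA probe sets above, and the list of ABA receptors and signalling had 0 genes measured. The pooled shares therefore mostly describe the LEA family: in CPR5-C dex against CPR5-C water leaves it held 14 of the higher calls and 1 of the lower. In CPR5-C dex against CPR5-C water leaves 17 were called higher (40.5%) and 2 lower (4.76%), where 23.3% and 24.6% of all probe sets were. In WT dex against WT water leaves 3 were called in either direction (7.14%), 2 higher and 1 lower, where 9.08% of all probe sets were. The interaction was called positive for 14 (33.3%) and negative for 1 (2.38%), where 18.1% and 20.4% of all probe sets were. In CPR5-C dex against WT dex leaves 18 were called higher (42.9%) and 1 lower, where 23.3% and 24.1% of all probe sets were. In CPR5-C water against WT water leaves 3 were called (7.14%), all higher, where 7.08% of all probe sets were called in either direction. In CPR5-C water against WT dex leaves 1 was called (2.38%), higher, where 1.51% of all probe sets were called in either direction. Among the leaves without induced CPR5-C the lists' shares were thus near those of all probe sets.

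Genes with a pattern like that of each of the 4 were found by Pearson's r of the centred values over the 12 arrays, among single-gene probe sets other than the 4. The 3 induced arrays set such an r almost alone, so it is given beside r over the other 9 arrays, which is only a description. For COR15A the closest were AT1G05720 (r = 0.996, and 0.893 over 9 arrays), XTH19 (0.995 and 0.893), which encodes a cell wall xyloglucan endotransglucosylase/hydrolase, and AT4G21620 (0.995 and 0.888). The 9 arrays are among the 12 by which these genes were picked, so r over the 9 is no separate support for a likeness. XTH19 had a log2 change of -0.45 in CPR5-C water against WT water leaves, which limma did not call (adjusted p = 0.265). In CPR5-C dex against CPR5-C water leaves its log2 change was 6.46, above that of each of the 4 genes.

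For COR15B the closest genes were AT2G36220 (r = 0.999, and 0.822 over 9 arrays), AT5G27760 (0.998 and 0.653) and the LEA gene AT2G23120 (0.998 and 0.601). For COR47 they were AT2G12400 (0.995 and 0.817), AT2G36220 (0.994 and 0.656) and AT3G02070 (0.994 and 0.7997). AT2G36220 was therefore among the closest to both COR15B and COR47, and it had a log2 change of 6.42 in CPR5-C dex against CPR5-C water leaves. For LTI30 they were AT2G37750 (0.997 and 0.302), AT5G15190 (0.997 and 0.450) and AT1G73480 (0.996 and 0.608). Over the 9 arrays all 3 values for LTI30 were thus below the 3 for COR15A.

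**Figure D4:**
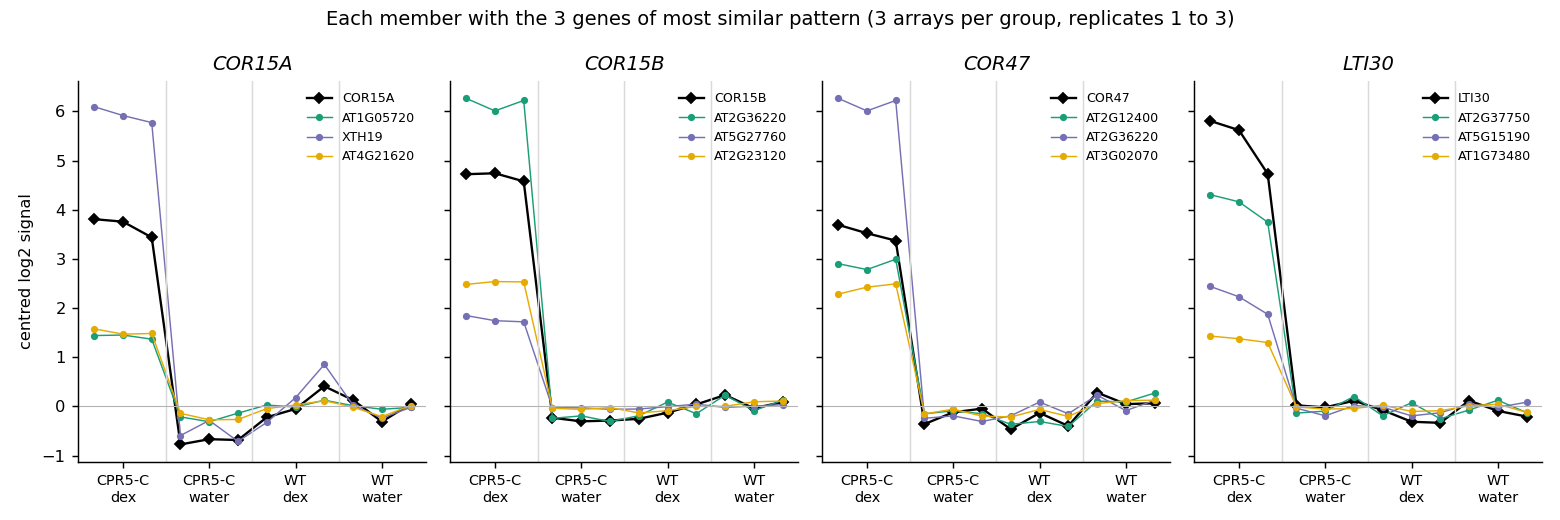
Centred log2 signal (y axis) on the 12 arrays, by group (x axis), of each of the 4 genes (black diamonds) and the 3 genes with the highest Pearson's r to it over the 12 arrays (coloured circles). Lines join arrays to guide the eye and imply no order of replicates, and the joined values are high on the 3 CPR5-C dex arrays and near 0 on the other 9.

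Position along the chromosome was examined with a window of 5 genes on each side, chosen after the values had been seen. Gene order was taken from RefSeq's TAIR10.1 table, and no coordinates are given because the files' build is not given in the sources used here. COR15A and COR15B are next to each other on chromosome 2, COR47 lies on chromosome 1 and LTI30 on chromosome 3. Of the neighbours 15 had a single-gene probe set, and in CPR5-C dex against CPR5-C water leaves 5 were called higher and 3 lower, with a median log2 change of 0.08. Over all probe sets 23.3% were called higher and 24.6% lower, so the neighbours' counts are near the shares over the array.

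The largest neighbour change was 1.26 (SE 0.09) for AT1G20490, 5 genes from COR47. AT2G42520, next to COR15B and overlapping it in the table's annotation, had 0.87 (SE 0.07), and AT2G42560, a LEA_4 gene 2 genes from COR15A, had 0.22 (SE 0.14, adjusted p = 0.232) and was not called. The 3 that fell were TBL39 at -0.24, AT1G20380 at -0.25 and AT1G20410 at -0.26. No neighbour outside the 4 genes reached the smallest log2 change among them, 3.71. The 4 were chosen by their rise in this comparison and the neighbours were not.

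Markers of leaf cell types could be followed for 4 of 26 genes. In CPR5-C dex against CPR5-C water leaves the mesophyll marker RCA, which encodes Rubisco activase, had a log2 change of -0.07 (adjusted p = 0.374), which turned to 0.34 when arrays were scaled to their poly-A spikes. The guard cell marker FMA fell by 0.28 (adjusted p = 0.0109), but was higher by 0.13 under that scaling, and the guard cell marker AT1G22690 fell by 3.06. The phloem marker SWEET11 rose by 0.51 (adjusted p = 8.44e-06). In WT dex against WT water leaves AT1G22690 was also called lower, by 0.61 (adjusted p = 0.0033), while RCA, FMA and SWEET11 were not called. The 5 epidermis and the 5 seed markers were not analysed here. The part of these marker changes in the signals of COR15A, COR15B, COR47 and LTI30 was not tested.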

How the data were processed

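RNA was extracted with TRIzol, amplified with MessageAmp Premier and biotin-labelled, per the labels' protocols. The deposited values are log2 signals. The submitters' processing notes name RMA, which gives that scale; its version is not given in the sources used here. Tested on the file, each probe set's median over the 12 arrays was 0 within 1e-06, so the authors had centred it, and a filter on dim probe sets or another background correction could not be tried. Probe sets were named through the platform's probe table, with symbols from RefSeq's TAIR10.1 table: of 22746 tested, after 64 controls were left out, 13513 had 1 gene (13508 matched a locus), 503 several and 8730 none.

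limma 3.58.1 in R 4.3.3 (lmFit, eBayes) was fitted to the 12 arrays together, with 1 mean for each group (8 residual and 5.79 prior degrees of freedom), two-sided, with Benjamini-Hochberg adjustment within each of 6 comparisons. Each probe set's spread was estimated over all 4 groups, so the induced arrays enter the SE of every comparison. The fit was tested on simulated data. Figures used matplotlib 3.10.9. The 4 genes and the lists were chosen with earlier results of these data known. Tests planned for the 4 genes in CPR5-C water leaves are not reported, because those arrays were the baseline of the rise that chose the genes. Named were those 4, up to 4 genes per list with the smallest p in CPR5-C dex against CPR5-C water leaves, and the 3 most alike per gene; other LEA genes, regulators and neighbours named were added after their values were seen. Same-numbered arrays did not deviate together: of 18 pairs, r was -0.21 to 0.36, and 2 exceeded 0.1, so numbers were not taken as pairs. Alternatives were the replicate block, only the groups compared, other normalizations, spike scaling, variance models, array weights, a stricter threshold, single-gene probe sets, no WT water arrays and each array left out. No batch is given in the labels.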

Additional observations from a re-analysis of the deposited data

Results flagged for a closer look

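Values here are interactions on the log2 scale, the dexamethasone change in CPR5-C leaves minus that in WT leaves, for COR47 and for list and marker genes. LTI30, COR15B and COR15A, whose interactions stand in the report, are left out because their WT dex and WT water arrays overlapped. Those of COR47 did not. Genes picked only for a similar pattern are left out because the induced arrays chose them. AT2G23120 was picked for its pattern too, but is kept as a list gene. From lists with more than 4 probe sets, genes were named by their smallest p in CPR5-C dex against CPR5-C water leaves. Their interaction p-values share the induced arrays and are not independent of that choice. For COR47 the interaction was 4.17. All its CPR5-C dex arrays lay above the CPR5-C water arrays and all its WT dex arrays below the WT water arrays. The first was so for 26.4% of all probe sets, and the share for the second is not given. Its call in wild-type leaves was lost in some single-array omissions. The interaction of COR47 was not tested, because COR47 too was chosen on its induced signal. It is given for the opposite directions. The interaction was called for LEA genes AT2G23120 at 2.70 (adjusted p = 3.18e-11), AT3G02480 at 4.11 (adjusted p = 6.14e-07), AT3G17520 at 3.54 (adjusted p = 1.08e-06) and LEA4-5 at 3.002 (adjusted p = 2.43e-06). It was 3.97 for ALDH7B4 (adjusted p = 9.99e-11) and 1.75 for GI (adjusted p = 2.34e-07). Among markers it was 0.35 for SWEET11 (adjusted p = 0.00616), -2.45 for AT1G22690 (adjusted p = 2.84e-08) and -0.35 for FMA (adjusted p = 0.0281). No explanation of these differences was tested.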

How the results depend on the processing

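With the replicate block as a fixed term, 20 of 42 pathway probe sets were called in CPR5-C dex against CPR5-C water leaves, against 19 without it, and 3, 15, 19, 3 and 1 in the other 5 comparisons, as without it, and the medians of the 4 genes were the same. The block changed 1 call, SIZ1, whose second probe set passed (adjusted p = 0.0429). Quantile and cyclic loess normalization were run on values already centred, where a probe set's average moves with its change, so loess takes much of a change out by construction. Quantile normalization gave 10 pathway calls in CPR5-C dex against CPR5-C water leaves and 7 in the interaction, and loess gave 6 and 0, and 4 in CPR5-C dex against WT dex leaves. The median log2 change of the 4 genes under quantile normalization was 2.36 in CPR5-C dex against CPR5-C water leaves, -0.38 in WT dex against WT water leaves, 2.78 in the interaction, 2.08 in CPR5-C dex against WT dex leaves, -0.70 in CPR5-C water against WT water leaves and -0.12 in CPR5-C water against WT dex leaves. Under loess it was 0.29 in CPR5-C dex against CPR5-C water leaves, 0.68 in the interaction and 0.33 in CPR5-C dex against WT dex leaves. The shares called over all probe sets under quantile and loess normalization are not given, so those pathway counts are not read as results about the pathway.

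Scaling to 24 poly-A spike probe sets moved the median of all probe sets by 0.41, -0.17, 0.58, 0.52, -0.06 and 0.11 over the 6 comparisons. Pathway calls were then 36, 1, 40, 41 and 0 in the first 5, and the median of the 4 genes was 5.08, -0.37, 5.31, 4.85 and, in CPR5-C water against WT dex leaves, 0.11. This scaling shifts every probe set alike within a comparison, and the share called over all probe sets under it is not given. Its pathway counts are therefore not read as results about the pathway. At adjusted p under 0.01, 1 pathway call was left in CPR5-C water against WT water leaves. With single arrays left out that count was 1 to 3, 1 without CPR5-C water replicate 2, and the interaction's median was 4.62 to 4.86.

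Under loess the CPR5-C dex against CPR5-C water change turned to -0.043 for LTI30, -0.17 for AT2G23120, -0.17 for AT3G02480, -0.057 for AT3G17520, -0.17 for AT5G27760, -0.10 for AT2G37750, -0.034 for AT5G15190 and -0.082 for AT1G73480. The interaction turned to -0.26 for AT3G02480, -0.18 for AT3G17520, -0.080 for LEA4-5, -0.0061 for GI, 0.24 for AT1G22690 and -0.17 for ALDH7B4. Under spike scaling it turned to 0.34 for RCA, 0.36 for COR27 and 0.13 for FMA in CPR5-C dex against CPR5-C water leaves, and to 0.50 for RCA and 0.24 for FMA in the interaction. With no scanner files used here, signal over background could not be examined.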
